A study of Chlorocebus sabaeus with 18 samples.

Results

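In COS-7 cells, 120 genes stood at a higher RNA level in the untreated cells than in each of 4 treated groups. They were chosen by their measured levels: a gene entered when its mean normalised count in every treated group was at most 0.55 times its mean in the untreated cells, and that untreated mean was 50 or more. Of 52560 single gene IDs in the table, 12441 had an untreated mean of 50 or more, and the 120 genes are 0.965% of these. Because these values chose the genes, every comparison with the untreated cells below is a description and carries no test.

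COS-7 is a fibroblast-like kidney line of the African green monkey that carries the large T antigen of the virus SV40. The 18 samples formed 6 groups of 3. CTL cells were controls of the line, called untreated here because the labels name no treatment for them. CGG cells were transfected with 60 CGG repeats placed in the FMR1 leader, GFP_TRA cells overexpressed TRA2A, and siTRA cells had TRA2A knocked down. CGG_siTRA cells received the repeat and the knockdown, and CGG_TRA cells the repeat and the overexpression. All groups are one cell line, and the labels give no group that received an empty vector or a control siRNA, so in a comparison with CTL the act of transfection and the named treatment cannot be told apart. The name GFP_TRA is given as the labels spell it.

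TRA2A is a splicing factor with arginine-serine-rich domains that binds purine-rich exon sequences and favours their inclusion. Expanded CGG repeats in the FMR1 leader are the cause of FXTAS, a late-onset tremor and ataxia disorder, and the repeat RNA is known to gather RNA-binding proteins into nuclear clumps. The series title asks about the recruitment of TRA2A by RNA in that disease.

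The deposited table of normalised counts per exon bin covers 15 libraries, 3 from each of 5 groups, and CGG_TRA has only splicing tables. Library totals over bins ran from 123599617 to 207475255 reads. A bin is a stretch of annotated exon, and a read that spans several bins counts in each. Letters a, b and c name the libraries of a group, because the columns do not show which titled replicate they hold. The titles of 2 CGG_siTRA samples name a round, the third and the first, without saying of what, and no column shows which library it is. Otherwise the labels do not say whether the 3 replicates of a group were separate cultures, and p-values then speak only of the spread among these samples, which may be technical. The files give human Ensembl IDs without names, and the reference table used here named 0 of the 120. Genes are therefore given by their position on GRCh38, the human build to which these monkey reads were aligned, and by their rank, from 1 to 120, in mean normalised count in CTL. For the same reason the targeted gene, the markers of the line and the known role of each gene were not looked up.

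Together the 120 genes held 1.45% to 1.75% of the normalised counts of the 3 CTL libraries and 0.697% to 0.941% of those of the 12 treated libraries, and the ranges did not overlap. In bulk RNA, fewer cells of a type and less RNA per cell cannot be told apart. In CTL, 18 of the genes had a mean of 10000 or more, 25 lay between 1000 and 10000, 49 between 100 and 1000, and 28 between 50 and 100. Their median CTL mean was 262, against 2835 for all 12441 genes. The summed count was carried by few genes: the rank 1 gene made up 54.2% of it in CTL and the first 3 genes 78.9%. Those shares are of counts, not of molecules, since longer genes collect more reads.

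The gene at rank 1, ENSG00000115414.18, lies at chr2:215360440-215436172 on the minus strand and has 93 bins. Its normalised counts were 1688624, 1277225 and 1495275 in CTL, 740331, 738223 and 706932 in CGG, 812578, 754301 and 821838 in GFP_TRA, 846393, 732923 and 664536 in siTRA and 836339, 912495 and 638547 in CGG_siTRA. Each CTL library was above each treated library, and no CGG library reached the lowest GFP_TRA library, while the siTRA and CGG_siTRA ranges overlapped each of the other treated groups. The CTL mean was 1487041 ± 205823 (SD, n = 3), against 728495 ± 18704 for the CGG mean, and the ratios to the CTL mean were 0.490 in CGG, 0.535 in GFP_TRA, 0.503 in siTRA and 0.535 in CGG_siTRA.

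ENSG00000137801.10, at rank 2, lies at chr15:39581079-39599466 on the plus strand with 39 bins. Its normalised counts were 383899.6, 373613 and 425489 in CTL, 148073, 139381 and 135269 in CGG, 189028, 173604 and 169385 in GFP_TRA, 166275, 150117 and 145404 in siTRA and 163478, 154821 and 143087 in CGG_siTRA. All CGG libraries stood below all GFP_TRA libraries, by the smallest margin between 148073 and 169385. The rank 3 gene (chr13:110148963-110307149, 61 bins) had counts of 302858, 279024 and 273202 in CTL, 149926, 149578 and 151799.5 in CGG, 128354, 126991 and 140883 in GFP_TRA, 135005, 128805 and 139822 in siTRA and 142748, 157692 and 140417 in CGG_siTRA. Here the order was the other way, with the CGG libraries above the GFP_TRA libraries. A gene on the opposite strand overlaps the rank 3 gene in the annotation, with a CTL mean of 126681 and a highest treated ratio of 0.704, and whether the counting used strand is not given in the sources used here. Per kilobase of bin the CTL means of the first 3 genes were 85882, 43059 and 34810.5 normalised counts.

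**Figure D1:**
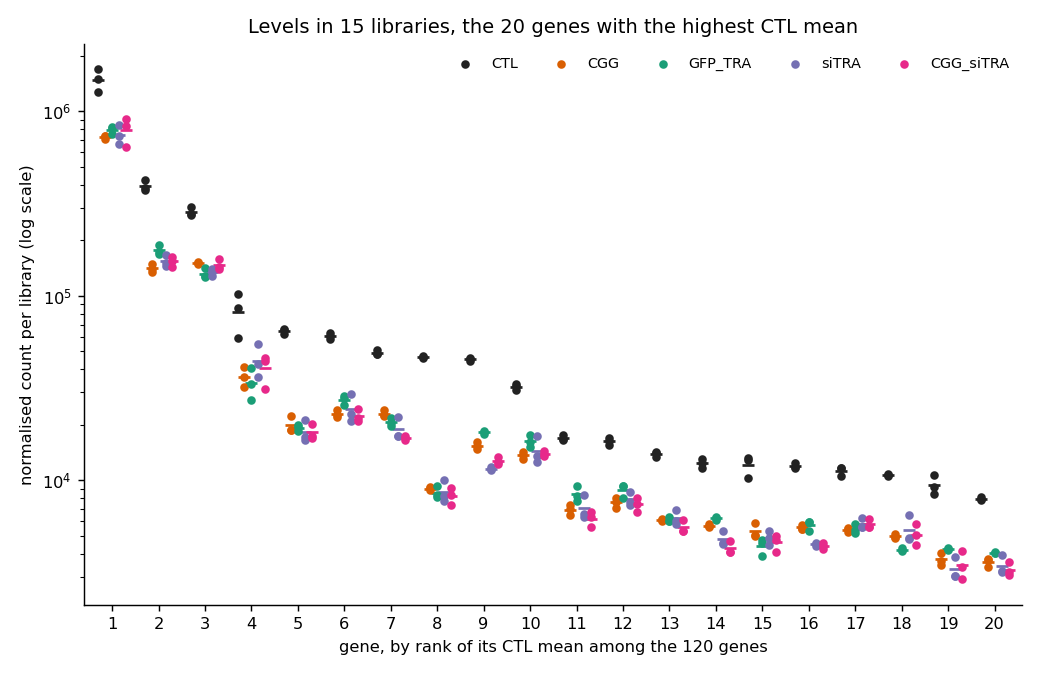
Normalised count (log scale) of the 20 genes with the highest CTL mean in each of 15 libraries, ordered by rank. Points are libraries, coloured by group, and horizontal ticks are means of 3 libraries. For each gene shown the 3 CTL points lie above the 12 treated points, while the 4 treated groups mostly lie close together.

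Ranks 4 to 10 ran from a CTL mean of 82210.4 down to 32209. The rank 4 gene (chr14:63852983-64226433, 175 bins) had the widest spread of these, with CTL libraries at 101987, 59136 and 85509. Its siTRA libraries were 42832, 54775 and 36195, so the lowest CTL and the highest siTRA value lay close together. By contrast, the rank 9 gene (chr5:168291651-168472303) held 46125, 45548 and 44376 in CTL and 11779.7, 11394 and 11494 in siTRA. The rank 7 gene (chr9:111896766-111935369) and the rank 10 gene (chr6:151239999-151358557) had ratios to CTL of 0.346 to 0.468 and 0.425 to 0.506 over the treated groups.

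Rank 5 (chr18:58481247-58611817, minus strand) and rank 6 (chr18:58671386-58754477, plus strand) are neighbours on chromosome 18, with 59.6 kb between them. Of those of the 12441 genes that have a position, no other starts in between. The rank 5 gene had ratios to CTL of 0.309 in CGG, 0.298 in GFP_TRA, 0.284 in siTRA and 0.283 in CGG_siTRA. At rank 6 the ratios were 0.376 in CGG, 0.452 in GFP_TRA, 0.403 in siTRA and 0.370 in CGG_siTRA. Both stood below CTL in every treated library, and the rank 5 gene lay at the lower fraction of CTL in each group.

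The lowest treated levels relative to CTL, by the highest of the 4 group ratios, were at rank 8 and rank 36. The rank 8 gene (chr17:80467148-80477843, minus strand, 12 bins) had normalised counts of 45864, 46854 and 47066 in CTL, 8839, 9158 and 9049.8 in CGG, 8286, 9278 and 8086 in GFP_TRA, 8263, 10089 and 7767 in siTRA and 7390.2, 8326 and 9121 in CGG_siTRA. Every treated mean was between 5.17-fold and 5.63-fold lower than CTL, and the treated groups overlapped. The short rank 36 gene (chr1:11857464-11858931, minus strand, 3 bins) had 1542, 1607 and 1386 in CTL, 209.6, 219 and 185 in CGG, 278, 211 and 206 in GFP_TRA, 267, 399 and 238 in siTRA and 259.9, 284 and 428 in CGG_siTRA. Its mean was 7.38-fold lower in CGG and 4.66-fold lower in CGG_siTRA. At rank 38 (chr4:174490177-174522731) the CTL libraries held 1351, 1610.2 and 1412 and the CGG_siTRA libraries 302, 175 and 278, with a highest ratio of 0.253 in CGG. The rank 60 gene (chr20:35226654-35277000) held 262, 279.8 and 248 in CTL and 57.4, 57.3 and 51.7 in siTRA. It is overlapped on the other strand by a cluster of genes with a CTL mean of 41955 whose highest treated ratio was 1.145.

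The other 6 of the 10 lowest ratios belonged to genes of low count, at ranks 84, 95, 102, 105, 107 and 112. Their CTL means ran from 58.6 to 132 and their highest ratios from 0.238 to 0.291. The rank 105 gene (chr3:111592900-111595443) held 79.4, 77.2 and 64.4 in CTL and 5.65, 11.7 and 6.83 in siTRA. The rank 95 gene (chr12:71439770-71586306) held 101, 56.7 and 126 in CTL and 15.1, 0 and 13.7 in siTRA, so that 1 treated library had no read of it. At such counts the ratio is set by few reads.

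Over all 120 genes the median ratio to the CTL mean was 0.395 in CGG, 0.399 in GFP_TRA, 0.376 in siTRA and 0.363 in CGG_siTRA, against 0.990, 1.03, 0.956 and 0.919 for all 12441 genes. The lowest ratio of any gene was 0.0670, in GFP_TRA, and the rule set the highest. Over the 17526 genes and groups of overlapping genes that were tested, which include lower counts, the deposited scaling put the median log2 ratio to CTL, with 1 added to both means, at -0.0073 in CGG, 0.034 in GFP_TRA, -0.049 in siTRA and -0.10 in CGG_siTRA. The highest of the 4 ratios was at most 0.25 for 4 genes, at most 0.333 for 17 and at most 0.5 for 79. GFP_TRA was the lowest group for 39 genes, CGG_siTRA for 33, siTRA for 30 and CGG for 18. GFP_TRA was also most often the highest treated group, for 49 genes, followed by CGG with 31, siTRA with 26 and CGG_siTRA with 14.

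**Figure D2:**
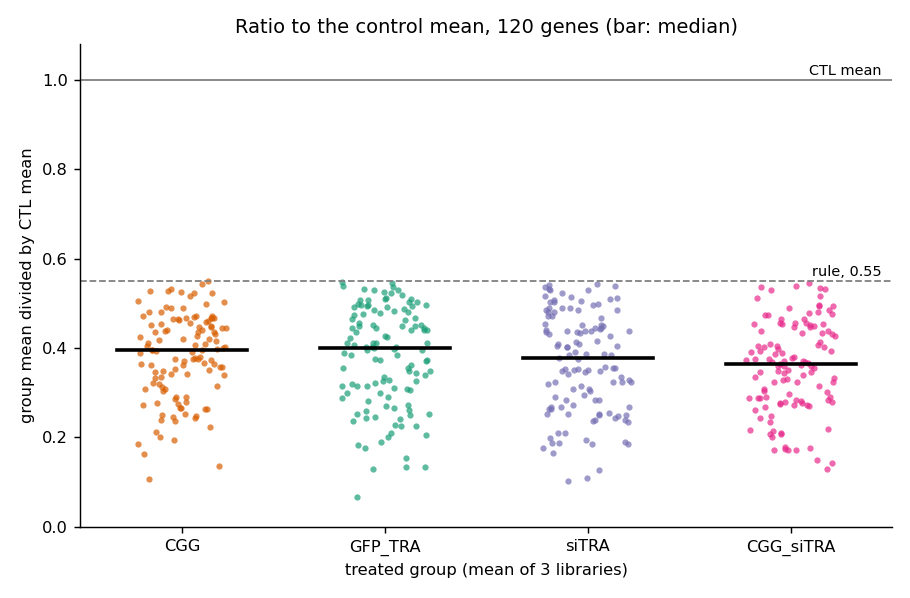
Ratio of each treated group mean (3 libraries) to the CTL mean for the 120 genes. Each point is a gene, the bars are medians (0.395, 0.399, 0.376 and 0.363 from left to right), the dashed line is the limit of 0.55 that the genes had to meet and the solid line is the CTL mean.

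Just inside the limit lay the rank 12 gene at chr6:139371807-139374620 (highest ratio 0.546), the rank 65 gene at chr5:171419656-171457623 (0.5487) and the rank 52 gene at chr11:66278199-66285301 (0.5497). Just outside lay genes at chr15:33310945-33866101 (0.552), chr11:34621093-34661057 (0.554) and chr14:96039384-96093887 (0.555). At the limit on the CTL mean, 3 genes inside had 50.2, 50.9 and 51.7 and 3 outside, which met the ratio, had 45.5, 46.9 and 49.6. No gap set the 120 genes apart from those next to them.

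For 114 of the 120 genes each of the 3 CTL libraries was above each of the 12 treated libraries. Among all 12441 genes this held for 1460, or 11.7%, and since the rule used these values nothing is read from the difference. The 6 genes with overlap were at ranks 71, 86, 90, 96, 98 and 99, all with a CTL mean under 200. At rank 71 (chr12:8645956-8662884), for example, the CTL libraries were 94.5, 239.9 and 240.0 and the CGG libraries 34.3, 51.7 and 122. The coefficient of variation of the CTL libraries had a median of 9.13% for the 120 genes and 5.12% for all 12441. Among genes with a CTL mean of 50 to 1000, which were 77 of the 120 and 4157 of all, it was 13.3% and 10.1%.

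Gene size was near that of other genes, with medians of 18 bins, 4571 bases of bin and a span of 32.8 kb, against 23 bins, 4921.5 bases and 34.0 kb for all 12441. A position was given for 118 of the genes, the other 2 having a single bin, and 54 lay on the plus strand. Chromosome 2 held 14 of them, or 11.9% against 6.88% of all genes with a position. Chromosome 15 held 9 (7.63% against 3.43%) and chromosome 18 held 5 (4.24% against 1.53%). Chromosome 19 held 1 (0.847% against 6.48%) and chromosome 16 none of the 118 (4.22% of all).

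Besides ranks 5 and 6, 5 pairs of the genes were neighbours among those of the 12441 with a position, of 11094 neighbouring pairs in all. These were ranks 56 and 27, ranks 13 and 87, ranks 112 and 2, ranks 48 and 9, and ranks 7 and 114, with gaps of 19.98, 9.45, 160, 27.5 and 97.2 kb. Overlap was looked for among genes and groups of overlapping genes with a position and a CTL mean of 10 or more. On the other strand 15 of the 120 were overlapped, and none was on its own strand. The rule left out groups of overlapping genes, so nothing is read from the lack on the own strand. The share over all genes is not given. In 7 of the 15 the overlapping gene had the higher CTL mean, so reads of the 2 strands could mix if strand was not used. The highest treated ratio of the 15 overlapping genes ranged from 0.691 to 1.63.

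The bins of a gene add up to the sum that the rule used, so their ratios to CTL are given only as a description. Of 2953 bins, 1435 in 117 genes had a CTL mean of 10 or more, and 99 genes had 2 or more such bins. Of the 1435 bins, 1427 were lower than CTL in all 4 treated groups. For 1054 bins, or 73.4%, the mean was at most 0.55 times CTL in all 4 groups. The other 8 bins of the 1435 were not lower in at least 1 group, and 0 bins were at or above CTL in all 4. The highest bin of a gene held a median of 23.4% of its count, and in 25 genes most of the count lay in 1 bin. In 18 genes only 1 bin reached a CTL mean of 10.

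Differences among the 4 treated groups were not used to choose the genes and could be tested, although the rule caps each treated mean and so limits how far the groups can lie apart above. All 120 genes passed the filter of a normalised count of 10 or more in 3 libraries, and 58 had a mean of 100 or more in every treated group. By edgeR's quasi-likelihood test over all 15 libraries with Benjamini-Hochberg adjustment over 17526 genes and groups of overlapping genes, 37 of the 120 (30.8%) differed among the treated groups at an adjusted p under 0.05. Of all 17526, 27.8% did. Without library a of GFP_TRA the counts were 24 of the 120 and 3626 of all 17526. The share was near the background. Adjusted p-values given below for single genes come from separate tests of each comparison in the same fit. A gene called there may therefore not be among the 37.

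GFP_TRA against siTRA compares raised with lowered TRA2A by the labels, and the level of TRA2A itself was not looked up. Here 15 genes (12.5%) were higher in GFP_TRA and 14 (11.7%) lower, against 14.4% and 13.1% of all 17526. The median log2 difference was -0.016 for the 120 genes and -0.00026 for all. With the authors' scaling factors 19 of the 120 genes were higher and 11 lower, beside 3803 higher and 1603 lower of all 17526, against 2519 and 2304 with TMM scaling. Of the 29 called, 8 differed 2-fold or more.

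The largest rise was at rank 40 (chr1:41478775-41484673). Its GFP_TRA libraries held 623, 701 and 408 and its siTRA libraries 240.1, 160.1 and 215, with CTL at 1132, 1243 and 1334. GFP_TRA was higher by 1.41 on the log2 scale (SE 0.24, adjusted p = 3.13e-04) in edgeR, without overlap. The rank 62 gene (chr4:118850688-119061245) held 109, 91.4 and 89.7 in GFP_TRA and 42.4, 65.1 and 36.1 in siTRA. The edgeR difference was 0.96 on the log2 scale (SE 0.23, adjusted p = 0.00474), and its CGG libraries, at 60.4, 41.3 and 42.3, lay with the siTRA libraries. For the rank 76 gene (chr17:81952507-81961293) the values were 56.6, 68.6 and 88.6 against 35.8, 5.21 and 42.0, a difference of 1.21 on the log2 scale (SE 0.42, adjusted p = 0.038) by edgeR. That call was lost in 6 of 13 alternatives, with adjusted p-values of up to 0.158. Among these were the fits without GFP_TRA b (adjusted p = 0.0762), GFP_TRA c (0.111) or siTRA b (0.0617, with a difference of 0.76). Another was the fit without the CTL libraries (0.068).

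The 3 largest falls were in genes of low count. At rank 111 (chr12:190077-210043) GFP_TRA held 7.80, 4.57 and 0 and siTRA 32.02, 0 and 31.2, and these overlapped. edgeR gave -2.41 on the log2 scale (SE 0.83, adjusted p = 0.038), which missed the threshold in 7 of 12 alternatives, with adjusted p-values from 6.02e-05 to 0.285, among them those without GFP_TRA b or c or siTRA a or c. The rank 86 gene (chr15:74179469-74202849) held 5.85, 40.2 and 5.61 in GFP_TRA and 68.7, 70.3 and 46.9 in siTRA, a difference of -1.87 on the log2 scale (SE 0.53, adjusted p = 0.014) by edgeR. Without GFP_TRA a or c its adjusted p was 0.0669 or 0.052, and in the fit of the 2 groups alone 0.0759. Without GFP_TRA b, the highest of its group, the difference was -3.47 (adjusted p = 1.46e-04). The rank 99 gene (chr15:78167468-78213499) held 19.5, 19.2 and 17.9 against 36.7, 29.9 and 69.3, with -1.35 on the log2 scale (SE 0.35, adjusted p = 0.00812) by edgeR. It is overlapped on the other strand by a gene with a CTL mean of 27953, and without siTRA c its difference was -0.89 (adjusted p = 0.0602). The rank 99 call was lost in 2 of 12 alternatives.

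CGG_siTRA against CGG adds the knockdown to the repeat. Of the 120 genes, 6 (5%) were higher in CGG_siTRA and 5 (4.17%) lower by edgeR, against 3.37% and 5.23% of all 17526. With the authors' scaling factors 3 of the 120 genes were higher and 6 lower, beside 293 higher and 2017 lower of all 17526, against 591 and 916 with TMM scaling. None of the 11 differed 2-fold. Without CGG b, CGG c or CGG_siTRA b the count was 5, 4 or 5.

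The rank 36 gene, the short gene on chromosome 1 given above, rose most, from 205 ± 17.5 (SD, n = 3) in CGG to 324 ± 90.8 (SD, n = 3) in CGG_siTRA. The edgeR difference was 0.77 on the log2 scale (SE 0.19, adjusted p = 0.0143). Its CTL mean was 1512, far above both. Without CGG c or CGG_siTRA c its adjusted p was 0.0784 or 0.0767. The rank 55 gene (chr2:15940564-15947007) went from 159, 125 and 128 to 148, 185 and 208, which overlapped, with 0.50 on the log2 scale (SE 0.15, adjusted p = 0.0442) by edgeR. At rank 34 (chr12:42456757-42589770) the values were 472, 487 and 439 and 506, 586 and 669, without overlap, and edgeR gave 0.43 on the log2 scale (SE 0.12, adjusted p = 0.0346). Both of these calls were lost in most alternatives, 10 of 13 for rank 55 and 9 of 13 for rank 34, and the rank 34 gene has an opposite-strand overlap with genes at a CTL mean of 17065.

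Among falls, the rank 64 gene (chr15:73319859-73369264) held 118, 114 and 135 in CGG and 83.4, 46.3 and 53.4 in CGG_siTRA, a difference of -0.91 on the log2 scale (SE 0.22, adjusted p = 0.0138) in edgeR. Without CGG c, CGG_siTRA b or CGG_siTRA c its adjusted p was 0.0716, 0.0905 or 0.0544. The rank 64 call was lost in 4 of 13 alternatives. The rank 7 gene held 24064, 22340.5 and 22619 in CGG and 17440.1, 16908 and 16642 in CGG_siTRA, without overlap, with -0.34 on the log2 scale (SE 0.07, adjusted p = 0.00415) by edgeR. At rank 14 (chr1:108560089-108639327) the values were 5627, 5826 and 5618 and 4721, 4081 and 4099, also without overlap, and edgeR gave -0.30 on the log2 scale (SE 0.07, adjusted p = 0.0111). Without CGG b or CGG_siTRA b the rank 14 adjusted p was 0.0507 or 0.0688, and in the gene's highest bin 0.114.

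The 2 comparisons of a group labelled as a knockdown with one that is not, siTRA against GFP_TRA and CGG_siTRA against CGG, share no library. With no control siRNA, lowered TRA2A and the siRNA treatment itself cannot be told apart in either comparison. In siTRA against GFP_TRA the counterpart is an overexpression group, so effects of the knockdown and of the overexpression cannot be told apart there. Of the 120 genes 4 were called in both, and in all 4 the knockdown group lay on the same side of its counterpart. They were 13.8% of the 29 and 36.4% of the 11 called, against 21.4% and 68.5% for all genes tested, of which 1032 were called in both and 1000 on the same side. Over all 120 genes 71 (59.2%) had the same sign in both, and 62.7% of all genes tested did.

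These 4 genes were at ranks 9, 14, 16 and 26, the last pair named here after their values were seen. The rank 9 gene was lower in both knockdown groups, with 18304, 18516 and 17832 in GFP_TRA and 11779.7, 11394 and 11494 in siTRA. In CGG it held 16222, 15418 and 14717 and in CGG_siTRA 12196, 12538 and 13341. GFP_TRA stood 0.58 on the log2 scale (SE 0.06, adjusted p = 1.18e-06) above siTRA by edgeR, and CGG_siTRA differed from CGG by -0.18 on the log2 scale (SE 0.06, adjusted p = 0.0499). The first call held under all 13 alternatives, whereas the second was lost in 9 of 13, among them without any one of CGG a, CGG b, CGG c, CGG_siTRA a or CGG_siTRA b (adjusted p from 0.0649 to 0.236). The rank 26 gene (chrX:101219906-101264497) went the other way, with 1067, 1072 and 1028 in GFP_TRA, 1869, 1724 and 1464 in siTRA, 1399.7, 1396 and 1281 in CGG and 1539, 1641 and 1864 in CGG_siTRA. The knockdown groups did not overlap their counterparts, yet all 4 stayed below the CTL libraries of 3524, 3492 and 3311. edgeR gave -0.75 on the log2 scale (SE 0.09, adjusted p = 8.97e-06) for GFP_TRA against siTRA and 0.41 on the log2 scale (SE 0.09, adjusted p = 0.00591) for CGG_siTRA against CGG, and among 13 alternatives for each only the gene's highest bin lost a call, in the second comparison (adjusted p = 0.274). The rank 16 gene (chr1:204422628-204494724) was lower in each knockdown group than in its counterpart. It held 4412, 4578 and 4515 in siTRA against 5982, 5960.5 and 5296 in GFP_TRA, and 4259.9, 4591 and 4434 in CGG_siTRA against 5468, 5473 and 5740.0 in CGG. Its edgeR differences were 0.28 for GFP_TRA against siTRA (SE 0.06, adjusted p = 0.00393) and -0.23 for CGG_siTRA against CGG (SE 0.06, adjusted p = 0.0324), and the second was lost without any one of CGG a, CGG b, CGG c, CGG_siTRA a or CGG_siTRA c (adjusted p from 0.0702 to 0.152). In the gene's highest bin neither call held, at 0.18 (adjusted p = 0.196) and -0.05 (adjusted p = 0.859). Over all 13 alternatives the first call was lost in 2 and the second in 9.

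Adding the repeat to the knockdown, CGG_siTRA against siTRA, gave 0 calls among the 120 genes in edgeR, 17 at an unadjusted p under 0.05 and 2 in DESeq2. The share of all 17526 at an unadjusted p under 0.05 is not given, so nothing is read from the 17. Of all 17526, edgeR called 0.0171% higher and 0% lower, and DESeq2 called 225 higher and 208 lower. The median log2 difference was 0.047 for the 120 genes, with a range from -1.49 to 1.54 and a median standard error of 0.22. A difference of a size near that error could not be detected gene by gene.

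CGG against GFP_TRA sets the 2 groups without knockdown side by side. By edgeR 6 genes (5%) were higher in CGG and 7 (5.83%) lower, against 4.4% and 2.1% of all 17526. With the authors' scaling factors 5 were higher and 8 lower, beside 623 higher and 743 lower of all, against 771 and 368 with TMM scaling. Leaving out 1 library left 5, 4 or 5 calls without CGG a, b or c, and 2, 7 or 6 without GFP_TRA a, b or c. The rank 50 gene (chrX:17375420-17735994) held 275, 277 and 264 in CGG and 141, 173 and 144 in GFP_TRA, without overlap. edgeR gave 0.87 on the log2 scale (SE 0.16, adjusted p = 0.00255). The rank 86 and rank 99 genes, given above, were also higher in CGG, by 1.81 (SE 0.53, adjusted p = 0.0497) and 1.29 (SE 0.35, adjusted p = 0.0351) in edgeR. Those 2 comparisons share the low GFP_TRA libraries. Leaving out single libraries took the rank 86 call away except without GFP_TRA b, where the difference was 3.41, and the rank 99 call except without CGG a.

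The rank 116 gene (chr6:93240020-93419547) was lower in CGG, with 7.10, 8.04 and 2.44 against 28.3, 15.5 and 29.2 in GFP_TRA. edgeR gave -2.05 on the log2 scale (SE 0.49, adjusted p = 0.0176), lost without CGG c (adjusted p = 0.109), GFP_TRA a (0.0658) or GFP_TRA c (0.0606). At rank 48 (chr5:167284799-168264157) the values were 186, 133 and 196 against 281, 274 and 316, and edgeR gave -0.71 on the log2 scale (SE 0.18, adjusted p = 0.0272). Its difference was -0.21 in the gene's highest bin, and only leaving out CGG c kept the call among single libraries. The rank 62 gene, named above, was also lower in CGG, at -0.98 on the log2 scale (SE 0.23, adjusted p = 0.0155) in edgeR. That call was lost in 5 of 13 alternatives, with adjusted p-values of up to 0.145. Among these were the fits without CGG b, CGG c or GFP_TRA a (adjusted p = 0.08, 0.0868 and 0.0714).

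**Figure D3:**
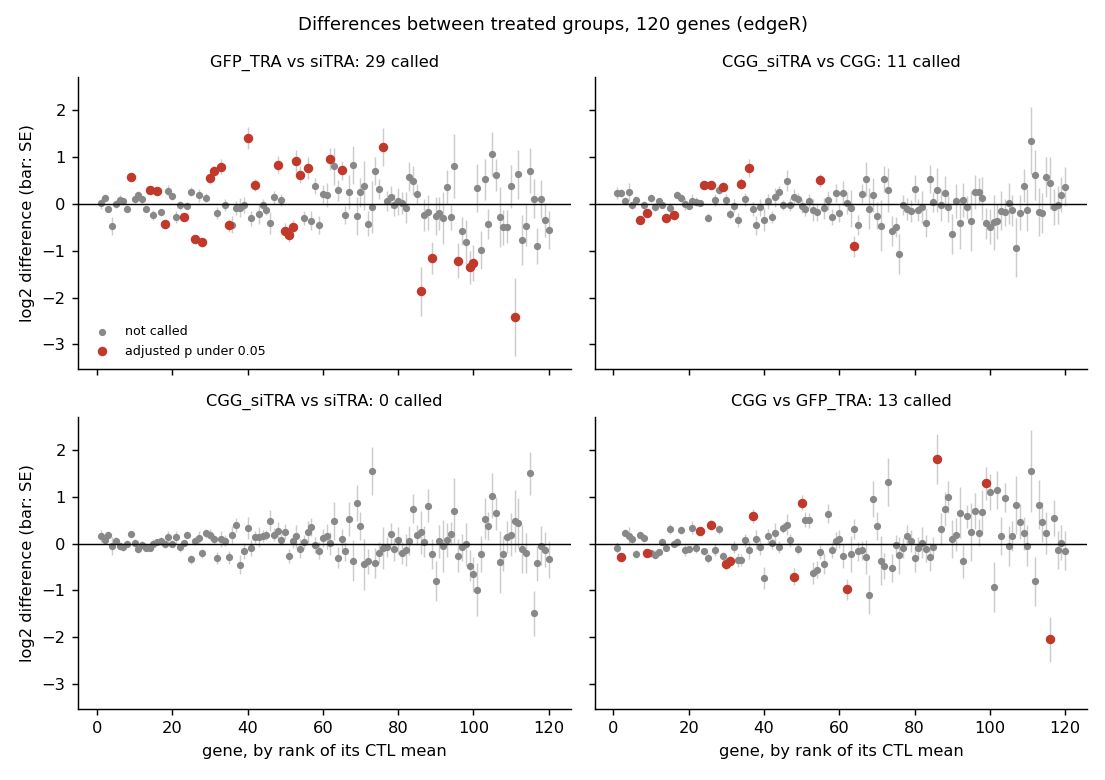
Log2 difference (first-named minus second group, edgeR) of the 120 genes in 4 comparisons between treated groups, against rank in CTL. Bars are standard errors, and red points have an adjusted p under 0.05: 29, 11, 0 and 13 genes. Points lie on both sides of 0 in each panel and scatter more at high rank, where counts are low.

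Relative use of bins within a gene was tested between treated groups with edgeR's diffSpliceDGE, on 1365 bins in 96 of the 120 genes. The filter on bins counted the CTL libraries too, so a bin could enter by its CTL counts alone. The 120 genes were chosen for lower treated levels, so some of their bins may hold too few treated reads to be called. How many did so is not given, so nothing is read from the called shares of the 1365 bins beside those of all bins. Called bins numbered 5 in GFP_TRA against siTRA (in 3 genes), 5 in CGG_siTRA against CGG (in 1 gene), 2 in CGG_siTRA against siTRA and 0 in CGG against GFP_TRA. In that last comparison 12 had an unadjusted p under 0.05, from which nothing is read, as the share over all bins is not given. There limma's diffSplice called 7 of the 1365, and 1407 (0.53%) of all 265486 bins. Among all 265486 bins the called shares were 0.396%, 0.135%, 0.0516% and 0.0166%. The 12 calls lay in the genes at ranks 1, 2 and 7.

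All 5 calls in CGG_siTRA against CGG were in the rank 2 gene, in bins 15, 18, 24, 32 and 35 counted from its 5′ end. These bins are little covered, with CTL means of 95.7 to 217 that make up 0.198% of the gene's count. The strongest was bin 32 (chr15:39593669-39594067), with 227, 175 and 244 in CTL, 58.0, 29.9 and 52.0 in CGG, 85.8, 72.2 and 80.8 in GFP_TRA, 151, 144 and 71.3 in siTRA and 163, 151 and 108 in CGG_siTRA. The CGG_siTRA libraries lay above the CGG libraries, and the relative use was 1.003 higher on the log2 scale (diffSpliceDGE adjusted p = 5.93e-07). Over the 5 bins the ratio to CTL was 0.206 to 0.289 in CGG and 0.564 to 0.687 in CGG_siTRA. The bins were picked by this comparison, so the gap between these ranges follows from the choice. In each of the 5, library c was the lowest of CGG_siTRA, for example 88.4 against 168 and 158 in bin 24. The 30 bins with a CTL mean of 1000 or more, which hold 99.5% of the count, had ratios of 0.339 to 0.369 in CGG and 0.357 to 0.472 in CGG_siTRA. Bins 15 and 32 were also called in GFP_TRA against siTRA, with lower relative use in GFP_TRA. In siTRA those bins held 84.7, 109 and 32.2 (bin 15) and 151, 144 and 71.3 (bin 32), so library c stood below the others. In counts it was also below every GFP_TRA library, at 41.9, 50.3 and 33.7 (bin 15) and 85.8, 72.2 and 80.8 (bin 32). The count of the whole gene was lower in siTRA c too, at 145404, than in any GFP_TRA library, where the lowest was 169385. Bin 2 (chr15:39581093-39581228), a covered bin with a CTL mean of 1767, was used more in CGG_siTRA than in siTRA, by 0.38 on the log2 scale (diffSpliceDGE adjusted p = 0.0225).

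**Figure D4:**
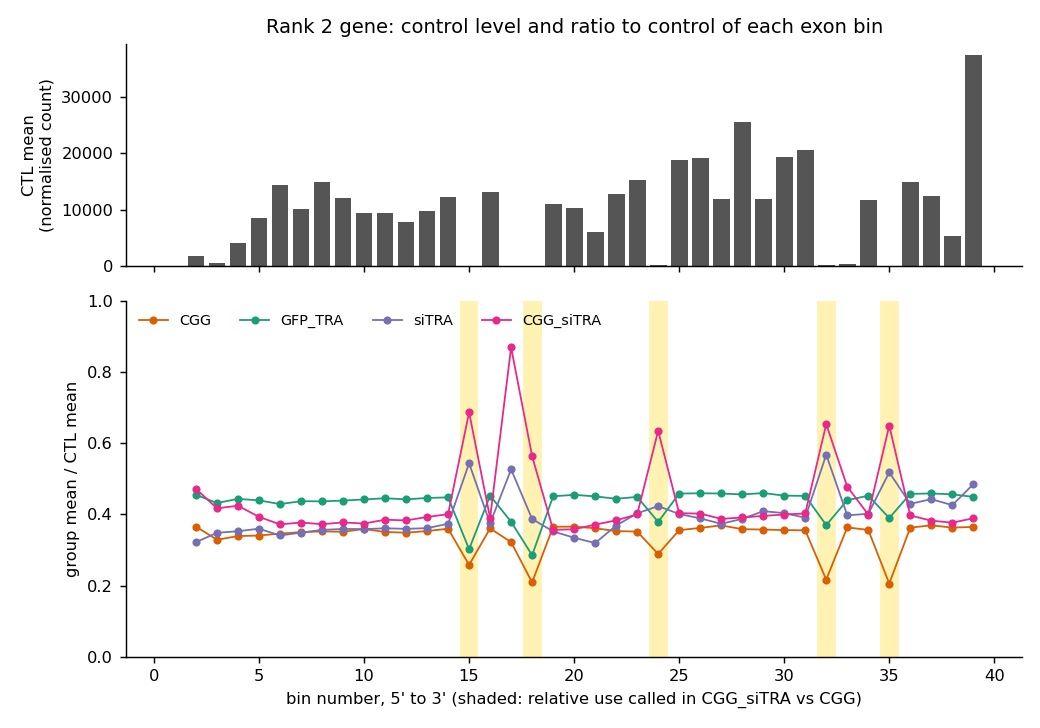
CTL mean (normalised count, upper panel) and ratio of each treated mean to CTL (lower panel) by exon bin of the rank 2 gene, for bins with a CTL mean of 10 or more in the lower panel. Shaded bins are the 5 whose relative use was called in CGG_siTRA against CGG. The 30 bins with a CTL mean of 1000 or more lie between 0.320 and 0.485 in all groups. In the shaded bins CGG_siTRA lies at 0.564 or above and CGG at 0.289 or below, a gap that follows from how they were picked.

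In the rank 7 gene the 2 bins at the 5′ end, next to each other at chr9:111896766-111897176 and chr9:111897177-111897200, were called with lower relative use in siTRA than in GFP_TRA. The first held 371, 362 and 360.0 in CTL, 169, 179 and 199.9 in CGG, 213, 207 and 125 in GFP_TRA, 110.2, 46.8 and 109 in siTRA and 119.5, 158 and 157 in CGG_siTRA. All siTRA counts of this bin lay below all GFP_TRA counts, but as shares of the gene's count the libraries overlapped. The whole gene held 19844, 20533 and 21874 in GFP_TRA and 17454, 22001 and 17317 in siTRA. The share in GFP_TRA c was thus below those in siTRA a and c. Library b of siTRA was the lowest of its group in the bin and the highest in the gene. Relative use was 0.60 higher in GFP_TRA than in siTRA (diffSpliceDGE adjusted p = 0.00263) and 0.58 higher in CGG_siTRA than in siTRA (adjusted p = 0.0371), on the log2 scale. The second bin was called in GFP_TRA against siTRA as well, at 0.55 (adjusted p = 0.0037), and a read that spans both bins counts in each. In the rank 1 gene, bin 44 (chr2:215381330-215382002) held 25.4, 31.1 and 41.5 in GFP_TRA and 75.3, 119.7 and 44.9 in siTRA, a relative use of -0.94 on the log2 scale (adjusted p = 0.0271). Its CTL mean was 179.8 of the 1487041 counts of the gene.

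The authors' deposited tables of splicing events, the only values that include CGG_TRA, hold 18 events in 7 of the 120 genes, at ranks 1, 3, 4, 5, 6, 9 and 13, and 10 of the 18 are in the rank 1 gene. In the authors' deposited table for CGG_TRA against CGG, 2 of the 18 had a p-value under 0.05, against 8.13% of all 6311 events. For CGG_TRA against CGG_siTRA the authors' deposited table has 1 (8.87% of all) and for CGG_siTRA against siTRA 1 (6.31%). The authors' deposited tables for CGG and for GFP_TRA against CTL have 0 of the 18, against 7.68% and 8.18% of all, with lowest p-values of 0.974 and 0.418. These 2 comparisons are with CTL, whose values chose the genes, so nothing is read from those p-values.

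The 4 events with a deposited p-value under 0.05 are these. In the authors' deposited table for CGG_TRA against CGG, an alternative 5′ splice site of the rank 9 gene (chr5:168460742-168464729) had a change in the share of transcripts that use it of -0.082 (p = 0.00593). The authors' deposited table for the same groups gives a cassette exon of the rank 6 gene (chr18:58710072-58714083) a change of 0.020 (p = 0.0283). For CGG_TRA against CGG_siTRA the authors' deposited table gives a complex event of the rank 1 gene (chr2:215379317-215382212) a change of 0.048 (p = 0.0396). For CGG_siTRA against siTRA the authors' deposited table gives an alternative last exon of the rank 13 gene (chr15:30961073-30991592) a change of -0.0048 (p = 0.00331). Which group is subtracted from which is not given in the sources used here, and the p-values are not adjusted for the 6311 events.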

How the data were processed

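Total RNA was made into rRNA-depleted libraries, per the labels' protocols. Trimming with cutadapt 1.14 and alignment with STAR 2.5.2 to GRCh38.p10, a human build, are listed in the submitters' processing notes, as is DESeq2 without a role. Monkey reads unlike the human genome may have gone unaligned. The authors deposited normalised counts per exon bin (a signal scaled by 1 factor per library), DEXSeq tables with counts, p-values and log2 fold changes, and EventPointer tables that give each splicing event a z score, a p-value and a change in the share of transcripts, per the file headers.

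Dividing by each library's step gave whole reads, within 0.1, for 100% of the values, and these differed from the deposited counts in 0 of 14640744 cells. The plan named edgeR for counts and limma only without them. Gene sums of these reads were tested with edgeR 4.0.16 in R 4.3.3 (TMM scaling, 1 mean per group over 15 libraries, a normalised count of 10 or more in 3 libraries, adjusted p under 0.05). limma 3.58.1 and DESeq2 1.42.0 were alternatives. The tests were checked on simulated data. Bins of 10 or more in 3 of the 15 libraries, CTL included, entered diffSpliceDGE in genes with at least 2 such bins.

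The genes, gene lists and rules were chosen with earlier results of these data known. Genes named are the 10 with the highest CTL mean, the 10 with the lowest highest ratio, those beside each limit and, per comparison of treated groups, the 3 called genes with the largest change each way. The planned gene lists, cell type markers and promoter and protein sequences need gene names and were not used here.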

Additional observations from a re-analysis of the deposited data

How the results depend on the processing

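With a limit of 0.5 in place of 0.55 the rule kept 79 genes. With the gene's highest bin in place of its sum it gave 75 genes, 67 of them among the 120. For 46 of the 120 the highest bin had a CTL mean under 50, and for 7 more its ratio was above 0.55, at most 0.598. Limits of 0.6 and on the CTL mean of 100 or 20, medians, and TMM scaling gave 163, 92, 145, 112 and 105. Without 1 library the rule gave 111 to 124.

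Called genes that differed among the treated groups numbered 22 in place of 37 with the highest bin, beside 3572 in place of 4878 of all genes tested. Without 1 library there were 24 to 50, below 37 without most of them but above it without siTRA a, b or c. For GFP_TRA vs siTRA a fit of the 2 groups alone gave 13 in place of 29, and leaving out 1 library 21 to 30. For CGG_siTRA vs CGG the 11 calls became 7 in the fit of the 2 groups, 6 without CTL in the fit, 3 with the highest bin and 4 to 10 without 1 library. For CGG_siTRA vs siTRA DESeq2 gave 2 and no filter on low counts 4, and leaving out 1 library 0 to 0. For CGG vs GFP_TRA the 13 calls became 25 with DESeq2, which called 1719 of all genes tested against 1139 in the main fit. The 13 became 30 in the fit of the 2 groups, 4 without CTL in the fit and 4 with the highest bin. With no filter there were 25, and without 1 library 2 to 7. For bins, limma's diffSplice gave 66 calls in place of 12, and a filter of 50 or more gave 14. The causes were not tested.

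Of the 25 results named for single genes, none changed direction in 319 alternatives, and 95 of these lost the call. The calls kept under every alternative run were 6: ranks 9, 26, 40 and 62 in GFP_TRA vs siTRA, rank 7 in CGG_siTRA vs CGG and rank 50 in CGG vs GFP_TRA. No paired analysis was possible because the columns carry no replicate numbers of the sample titles. Low counts limit ranks above 92, whose CTL means lie between 50 and 100.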
